A study of Mus musculus with 12 samples.

Results

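Ketone body metabolism and transport was described through 6 genes, chosen by name: Bdh1, Bdh2, Oxct1, Acat1, Slc16a1 and Slc16a7. All 6 were measured, among 19505 genes in all, and each had 1 probe set on the array. The data are 12 single-colour expression arrays, each of 1 labelled replicate of mouse myocardium, in 3 groups of 4, and a replicate is called a heart here although the labels do not say whether animals were pooled. NC mice had vehicle injected into the peritoneum daily for 5 days. DM mice had streptozotocin, which kills the pancreatic cells that make insulin, by the same route for 5 days, and entered the study if their fasting glucose, taken 2 weeks afterwards, reached 16.7 mM or more. DM_AngIV mice had the same streptozotocin course and entry limit and also received angiotensin IV, a peptide of the renin-angiotensin system, at the dose labelled high, a daily 2.88 mg/kg, from the end of week 8 to the end of week 24. The myocardium of all groups is labelled 6 months. The labels used here name neither the strain and sex nor the region of the heart taken. Streptozotocin lowers insulin in the whole animal, so the diabetic groups model insulin deficiency and not a change made in the heart alone.

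Ketone bodies are made by the liver from fatty acids when insulin is low, and are carried in blood as beta-hydroxybutyrate and acetoacetate. Monocarboxylate transporters of the plasma membrane bring them into the heart, which is one of their main users. In the mitochondrion beta-hydroxybutyrate is oxidised to acetoacetate, acetoacetate is activated with coenzyme A taken from succinyl-CoA, and a thiolase splits the product into acetyl-CoA for the tricarboxylic acid cycle. Bdh1 encodes the mitochondrial beta-hydroxybutyrate dehydrogenase of the first step. Oxct1 encodes SCOT, the transferase of the second step, which liver cells lack. Acat1 encodes the mitochondrial thiolase of the third step. Slc16a1 and Slc16a7 encode the transporters MCT1 and MCT2, and Bdh2 encodes a cytosolic dehydrogenase of the same broad family as Bdh1.

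In these hearts the first 2 enzymes of ketone oxidation had lower mean levels in diabetic mice, and the thiolase and MCT1 lay within a narrow range in all groups. Mean Bdh1 was 2.57-fold lower in DM than in NC and 2.69-fold lower in DM_AngIV than in NC. Mean Oxct1 was 1.52-fold lower in DM and 1.26-fold lower in DM_AngIV, and all 8 diabetic hearts were below all 4 NC hearts. None of these differences passed the threshold over all genes, and individual diabetic mice differed widely. The values are log2 expression, on which a difference of 1 is a doubling, and a gene was called changed at a limma adjusted p below 0.05.

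The regulatory sequence just before the starts of Bdh1 and Oxct1 is shown because these are the members whose levels were low in the same hearts. Windows of 250 bases before the start, from RefSeq (GRCm38.p6), were held for 4 of the 6 members. Bdh1 has 2 annotated starts on the plus strand, with windows at chr16:31422047-31422296 and chr16:31428503-31428752, and the Oxct1 window lies at chr15:4026178-4026427 on the plus strand. Capitals mark matches, on either strand, to the forkhead core AAACA.
Bdh1 first start: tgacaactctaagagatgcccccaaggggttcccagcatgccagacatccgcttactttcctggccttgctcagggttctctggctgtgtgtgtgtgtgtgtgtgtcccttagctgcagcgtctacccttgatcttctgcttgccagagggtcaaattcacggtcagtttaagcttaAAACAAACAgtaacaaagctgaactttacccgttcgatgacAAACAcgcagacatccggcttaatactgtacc
Bdh1 second start: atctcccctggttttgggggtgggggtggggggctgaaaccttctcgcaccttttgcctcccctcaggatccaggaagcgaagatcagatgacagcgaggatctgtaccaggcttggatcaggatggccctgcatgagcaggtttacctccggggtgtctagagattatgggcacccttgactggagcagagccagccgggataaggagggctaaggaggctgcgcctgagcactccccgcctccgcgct
Oxct1 start: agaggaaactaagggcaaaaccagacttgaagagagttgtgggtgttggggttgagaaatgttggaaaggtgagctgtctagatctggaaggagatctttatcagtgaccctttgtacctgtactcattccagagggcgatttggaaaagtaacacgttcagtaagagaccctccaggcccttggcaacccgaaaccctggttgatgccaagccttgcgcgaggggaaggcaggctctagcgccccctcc

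The forkhead core AAACA, searched on both strands, had 3 matches in the first Bdh1 window, at 73, 69 and 32 bases before the start, of which the first 2 share a base. It had no match in the second Bdh1 window or in the Oxct1 window, and 4 matches in the window of Bdh2, at 172, 111, 93 and 19 bases before the start. The core is short, and 46.4% of 32851 windows of the same length held it. The longer FoxO core GTAAACA (3.17% of windows) and the insulin response sequence CAAAACA (5.56%), both of which contain AAACA, had no match in the 3 windows. The nuclear receptor half-site AGGTCA (14.0%) and its extended form AAGGTCA (4.08%), the E-box CACGTG (6.02%) and the GC box GGGCGG (32.7%) had none either. In the Slc16a1 window the E-box matched once and the GC box matched once. That window was rich in G and C (76.4%), against 49.6% and 60.8% in the Bdh1 windows and 52.0% in the Oxct1 window, where the median over all windows was 52.4%. A match or its lack describes these letters only.

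Array quality and tissue were alike in most respects. Array medians lay between 4.12 and 4.19, and the correlation of any array with another, across genes, was 0.977 to 0.990. The level of background was set at 4.96, the 95th percentile of 246 reporter controls, and a gene at or below it on an array is called not above background there. All 8 cardiomyocyte markers were above background, and their mean level lay between 11.27 and 11.46 on all arrays. Atrial signal was present in 5 arrays, NC replicates 1 and 3 and DM replicates 1, 2 and 4, where Myl7, the atrial myosin light chain, was above background. Summed over 5 atrial markers, the log2 level ranged from 25.5 to 42.9 in NC and from 22.7 to 40.5 in DM. In DM_AngIV it ranged from 24.8 to 26.8. Of the other markers Myl4 and Nppa were above background on all 12 arrays, Sln on 11 and Bmp10 on none. An array called without atrial signal is thus one where Myl7 was not above background, although other atrial markers could be. Liver transcripts varied as well, and the summed level of 4 hepatocyte markers ranged from 16.5 to 37.5 in NC, from 22.8 to 26.1 in DM and from 18.3 to 29.6 in DM_AngIV, highest in NC replicate 3. Macrophage markers were higher in some diabetic hearts, with a mean level over 4 markers of 4.77 to 5.00 in NC, 5.00 to 5.71 in DM and 4.94 to 5.44 in DM_AngIV, and their part in the values below was not tested. No marker of adipocytes, of neural cells or of lymphocytes was above background.

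Bdh1, which starts the oxidation of beta-hydroxybutyrate, had the widest spread of the members. In NC replicates 1 to 4 its log2 level was 8.00, 7.23, 7.54 and 8.23. In DM it was 5.53, 5.76, 6.97 and 7.29. In DM_AngIV it was 7.56, 5.93, 5.86 and 5.93. DM replicates 1 and 2 and DM_AngIV replicates 2, 3 and 4 were thus below every other heart, while DM replicate 4 and DM_AngIV replicate 1 lay inside the NC range. DM replicate 3 was below that range. The mean was 7.75 ± 0.45 (SD, n = 4) for NC, against 6.39 ± 0.88 for DM and 6.32 ± 0.83 for DM_AngIV.

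The difference in Bdh1 between DM and NC was −1.36 ± 0.41 (SE), with a 95% interval of −2.24 to −0.49 and a limma adjusted p of 0.316. By size this was the 4th lowest difference of all 19505 genes, but by p-value it ranked 284th. Its spread within groups, a standard deviation of 0.74, exceeded that of 99.6% of the 8372 genes with a mean above background. Between DM_AngIV and NC the difference was −1.43 ± 0.41 (limma adjusted p = 0.113). Without DM_AngIV replicate 1 it was −1.84 ± 0.36 and passed (limma adjusted p = 0.0317). With both diabetic groups weighted equally against NC it was −1.40 ± 0.36 (limma adjusted p = 0.0928), a change of −62.0% on the linear scale. That comparison passed without DM replicate 4 (−1.55, limma adjusted p = 0.0427) or without DM_AngIV replicate 1 (−1.60, 0.0319), and the whole range of adjusted p over its alternatives was 0.0319 to 0.599.

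Atrial signal and low Bdh1 were found together in some hearts only. The 2 lowest DM hearts, replicates 1 and 2, had atrial signal, but so had DM replicate 4, the highest DM heart. DM_AngIV replicates 2, 3 and 4, with Bdh1 of 5.86 to 5.93, had no atrial signal. With the atrial marker mean as a covariate, Bdh1 differed by −1.32 between DM and NC (limma adjusted p = 0.358). With the 5 atrial arrays left out, DM replicate 3 stands alone in its group and the fit assumes that it varies like the others, and the difference was −0.76 (0.999). The same omission left all DM_AngIV hearts in place, and there the difference from NC was −1.41 (0.261). In bulk tissue, fewer cells that express a gene and less RNA per cell cannot be told apart.

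**Figure D1:**
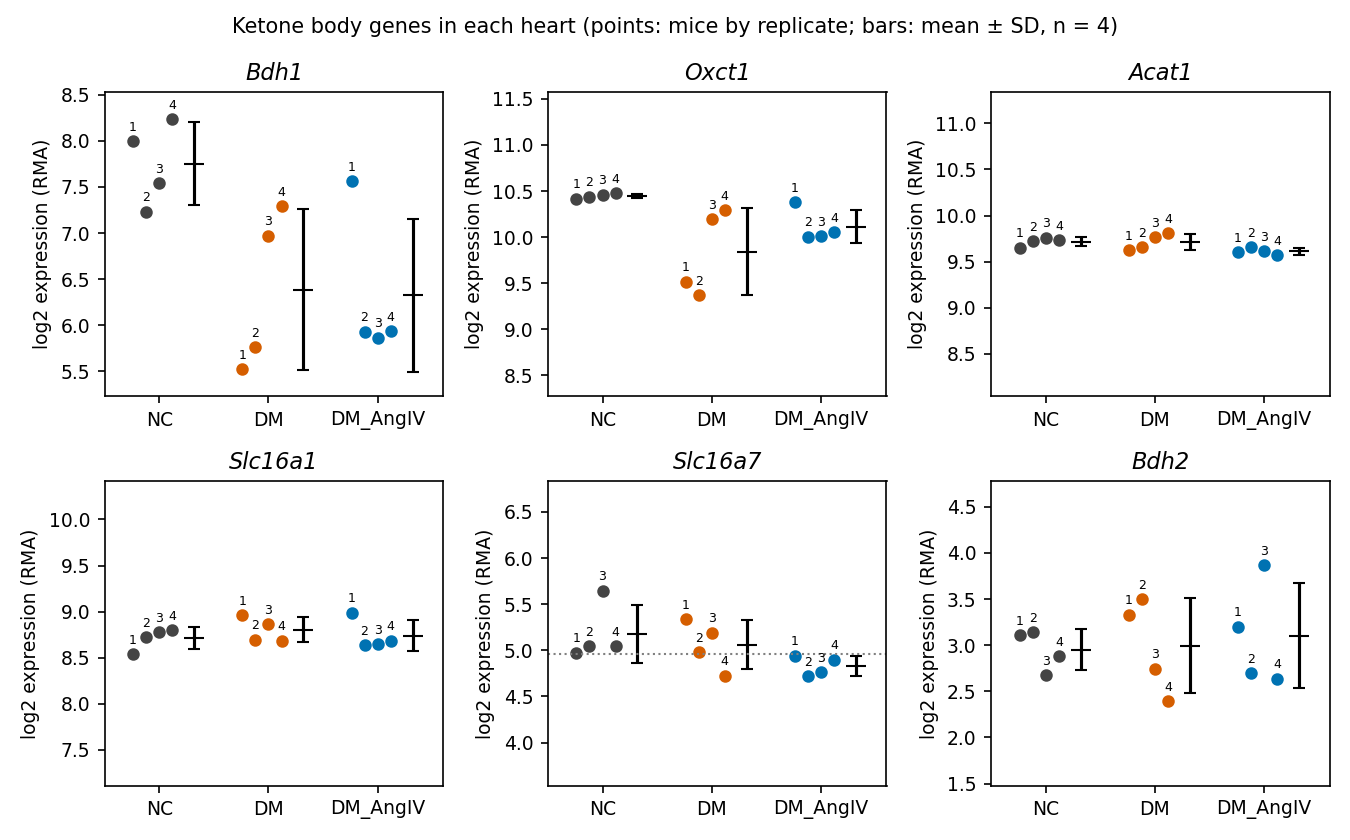
Log2 expression of the 6 ketone body genes in each heart. Points are mice, numbered by replicate, bars are group means ± SD (n = 4), the dotted line is the background percentile of 4.96, and every panel spans the same number of log2 units. Bdh1 spreads widely in both diabetic groups and Oxct1 in DM, whereas Acat1 stays within a narrow band in every group.

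Oxct1, the transferase that commits acetoacetate to oxidation, was nearly constant in control hearts. In NC replicates 1 to 4 its level was 10.42, 10.44, 10.46 and 10.47. In DM it was 9.52, 9.37, 10.19 and 10.29. In DM_AngIV it was 10.38, 10.01, 10.01 and 10.05. Each diabetic group lay below NC without overlap, and DM replicates 1 and 2 were the lowest hearts, as for Bdh1. DM_AngIV replicate 1 came within 0.04 of the lowest NC heart.

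The mean of Oxct1 was 10.45 ± 0.03 (SD, n = 4) for NC, against 9.84 ± 0.47 for DM and 10.11 ± 0.18 for DM_AngIV. The difference was −0.60 ± 0.18 (SE) for DM against NC (limma adjusted p = 0.308) and −0.34 ± 0.18 for DM_AngIV against NC (limma adjusted p = 0.412). For both diabetic groups against NC it was −0.47 ± 0.15 (limma adjusted p = 0.183), a change of −27.7% on the linear scale. In an exact two-sided permutation test of the array labels, not adjusted, p was 0.0286 for each diabetic group, the smallest that 4 against 4 arrays can give. Oxct1 was 1 of 408 genes, 2.09% of all, for which DM lay wholly below NC, 1 of 820 (4.20%) for DM_AngIV and 1 of 173 (0.887%) for all diabetic hearts. In DM against NC the difference was −0.45 without DM replicate 2. It was −0.26 without the 5 arrays with atrial signal, where DM replicate 3 stands alone in its group. With the atrial marker mean as a covariate it was −0.57. In DM_AngIV against NC it was −0.50 with that covariate.

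Acat1, the thiolase of the last step, was close to its control level in every diabetic heart. Its level lay between 9.65 and 9.76 in NC, 9.62 and 9.81 in DM, and 9.57 and 9.66 in DM_AngIV. The difference was −0.00 ± 0.09 (SE) for DM against NC, with a 95% interval of −0.20 to 0.19, and −0.11 ± 0.09 for DM_AngIV against NC, with an interval of −0.30 to 0.09 (limma adjusted p = 0.996 and 0.643). Within groups its standard deviation was 0.06, lower than that of all but 0.80% of the genes with a mean above background. Of the members it varied least between hearts within groups, and a shift in Acat1 as large as that of mean Bdh1 or Oxct1 lies outside its intervals against NC.

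Slc16a1, the main monocarboxylate transporter of heart muscle, differed little between groups. In NC its level was 8.54, 8.72, 8.78 and 8.80, in DM 8.96, 8.69, 8.86 and 8.68, and in DM_AngIV 8.99, 8.64, 8.65 and 8.68. The groups overlapped, and the highest heart of all was DM_AngIV replicate 1. The difference from NC was 0.09 ± 0.11 (SE) in DM, with a 95% interval of −0.15 to 0.33, and 0.03 ± 0.11 in DM_AngIV, with an interval of −0.21 to 0.27 (limma adjusted p = 0.874 and 0.944). The sign of the DM_AngIV value turned under quantile normalization (−0.00) and with the atrial covariate (−0.03). Endothelial cells were measured alongside, and the mean level of 5 endothelial markers was also highest in DM_AngIV replicate 1 (8.44) and next in DM replicate 1 (8.39), against 7.98 to 8.21 in all other hearts. Its part in the Slc16a1 values was not tested.

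Slc16a7, the high-affinity transporter MCT2, was near background. In NC its level was 4.98, 5.04, 5.65 and 5.05, and in DM it was 5.34, 4.98, 5.19 and 4.73. In DM_AngIV it was 4.94, 4.72, 4.76 and 4.90, and no array there was above background. DM_AngIV lay wholly below NC, with means of 4.83 and 5.18. With values below background set to that level, mean Slc16a7 was 1.16-fold lower, a point estimate and not a lower limit. The limma interval of the measured difference ran from −0.68 to −0.01 (limma adjusted p = 0.322). NC replicate 3, at 5.65, weighed most in the fold, and the other NC hearts, at 4.98 to 5.05, were just above the background of 4.96. The measured difference of −0.35 was −0.19 without NC replicate 3, the array with the most liver transcripts, −0.21 without the arrays with atrial signal, and −0.27 with the hepatocyte marker mean as a covariate. Bdh2, the cytosolic dehydrogenase, was not above background on any of the 12 arrays, with values between 2.39 and 3.87, and no fold is given for it.

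Counted together, 0 of the 6 members were called by limma in DM against NC, where 0.0154% of all genes were called, and 2 (Bdh1 and Oxct1) had an unadjusted p below 0.05, as had 8.95% of all genes. In DM_AngIV against NC 0 were called, where 1.02% of genes were, and 2 (Bdh1 and Slc16a7) had an unadjusted p below 0.05, as had 14.6% of genes. With both diabetic groups against NC 0 were called, where 0.631% of genes were, and 2 (Bdh1 and Oxct1) had an unadjusted p below 0.05, as had 13.1% of genes. At an adjusted p below 0.1 that comparison called 1 member, Bdh1, and 1.64% of genes. In each comparison 4 of the 6 members were below 0, where 50.2%, 51.5% and 50.6% of all genes were. The median difference of the 6 members was −0.06, −0.22 and −0.14 in these comparisons, beside −0.00, −0.01 and −0.00 over all genes. In the exact permutation test, unadjusted, Bdh1 had p = 0.0571 in DM, 0.0857 in DM_AngIV and 0.0202 in all diabetic hearts.

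**Figure D2:**
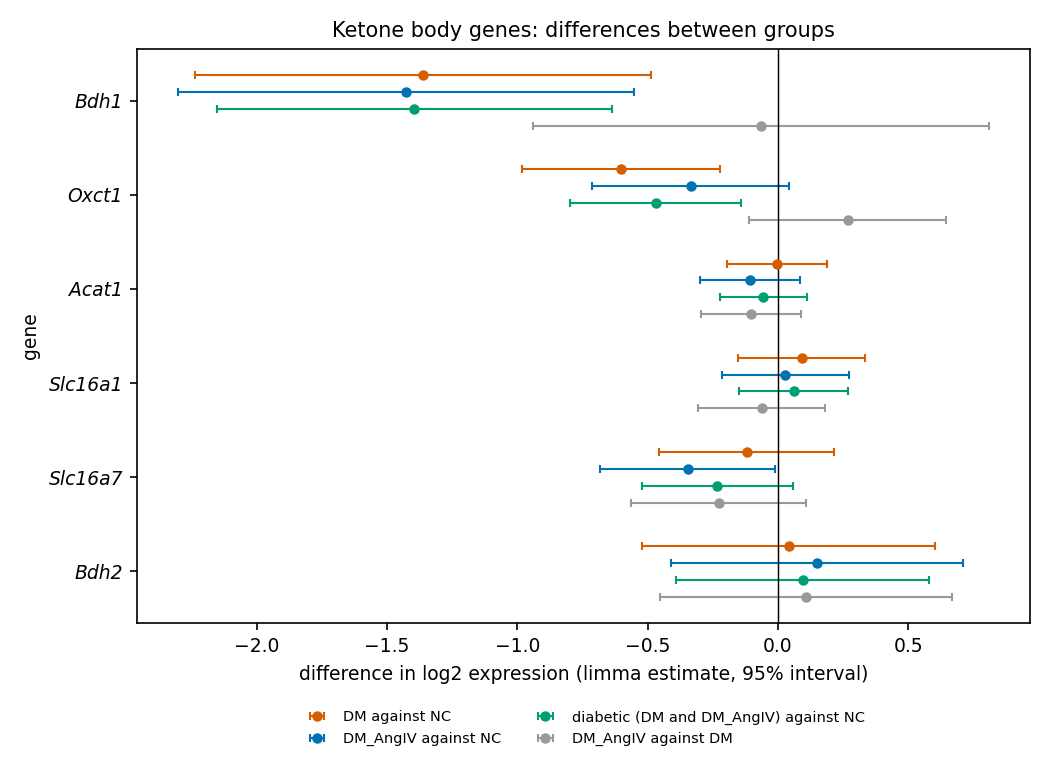
Differences in log2 expression between groups for the 6 genes, as limma estimates with 95% intervals, over 12 arrays. The Bdh1 intervals against NC lie below 0 and are wide, the Acat1 and Slc16a1 intervals are narrow and include 0, and every interval for DM_AngIV against DM includes 0.

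Treatment of diabetic mice with angiotensin IV was read from DM_AngIV against DM, which shares the DM arrays with DM against NC. By limma 0 of the 6 members were called, where 0% of all genes were called, and 0 members had an unadjusted p below 0.05, against 7.48% of genes. Of the members 4 were below 0, as were 50.2% of genes, and their median was −0.06. Bdh1 differed by −0.06 ± 0.41 (SE), with a 95% interval of −0.94 to 0.81, and Oxct1 by 0.27 ± 0.18, with an interval of −0.11 to 0.65 (limma adjusted p = 0.984 and 0.762). The Oxct1 interval includes both 0 and 0.60, the size of the distance from DM to NC. Bdh1 depended on single mice, at −0.48 without DM_AngIV replicate 1 and 0.24 without DM replicate 4, and was −0.36 with the atrial covariate and −0.65 without the arrays with atrial signal. The Oxct1 value was 0.07 with the atrial covariate and −0.08 without the arrays with atrial signal. No DM_AngIV array had that signal, and without the arrays that had it DM is replicate 3 alone. Acat1 differed by −0.10 ± 0.09, Slc16a1 by −0.06 ± 0.11 and Slc16a7 by −0.23 ± 0.16.

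Across mice, the level of Bdh1 fell into 2 ranges. The 5 lowest hearts, DM replicates 1 and 2 and DM_AngIV replicates 2, 3 and 4, were at 5.53 to 5.93, and the other 7 were at 6.97 to 8.23, which left a gap of 1.04. Oxct1 put the same 5 hearts lowest, at 9.37 to 10.05, against 10.19 to 10.47 in the other 7. Within the low range both genes were lower in DM replicates 1 and 2 than in DM_AngIV replicates 2 to 4. Bdh1 was 5.53 and 5.76 against 5.86 to 5.93, and Oxct1 was 9.52 and 9.37 against 10.01 to 10.05. The 2 genes ordered DM replicates 1 and 2 oppositely, and likewise DM_AngIV replicates 2 and 3. Because of the gap no correlation over all hearts is given for this pair. Within the 7 upper hearts Pearson's r was 0.716 (exact permutation p = 0.0708, adjusted p = 0.531 over 15 pairs) and Spearman's rho was 0.607 (p = 0.167, adjusted p = 0.900). Neither value passed after adjustment, and without the 2 hearts farthest from the median Bdh1 r was 0.282 and rho was −0.10, over 5 hearts. For the 5 lowest hearts no correlation was computed, and 5 hearts are few for a correlation in either range.

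Pdk4, which encodes the kinase that shuts off pyruvate dehydrogenase and is known to rise when insulin is low, was looked at in the same hearts after its values had been seen. Its level was 8.03, 8.44, 8.36 and 7.32 in NC, 10.31, 9.73, 9.18 and 8.58 in DM, and 7.34, 9.57, 8.98 and 8.67 in DM_AngIV. The difference of DM from NC was 1.41 ± 0.42 (SE; limma adjusted p = 0.308). Pdk4 was highest in DM replicates 1 and 2, the hearts with the lowest Bdh1 and Oxct1, and DM_AngIV replicate 1, with Bdh1 and Oxct1 near NC, had Pdk4 in the NC range. The 7 upper hearts are the NC hearts, DM replicates 3 and 4 and DM_AngIV replicate 1, chosen by Bdh1 itself. Values were permuted across groups, so p does not tell a relation between mice from a difference between groups. In these 7 hearts Bdh1 and Pdk4 had r = −0.802 (exact permutation p = 0.0331, adjusted p = 0.0662 over 2 relations). Spearman's rho was −0.929 (exact permutation p = 0.00675, adjusted p = 0.0135). Without the 2 hearts farthest from the median Bdh1, r was −0.451 and rho was −0.80, over 5 hearts. The adjustment covers 2 relations only, and not the choice of Pdk4 and of the 7 hearts after the values were seen. Oxct1 and Pdk4 had r = −0.679 (exact permutation p = 0.0940) and rho = −0.679 (p = 0.110) there, and r was 0.217 and rho −0.10 without the 2 hearts farthest from the median Oxct1.

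**Figure D3:**
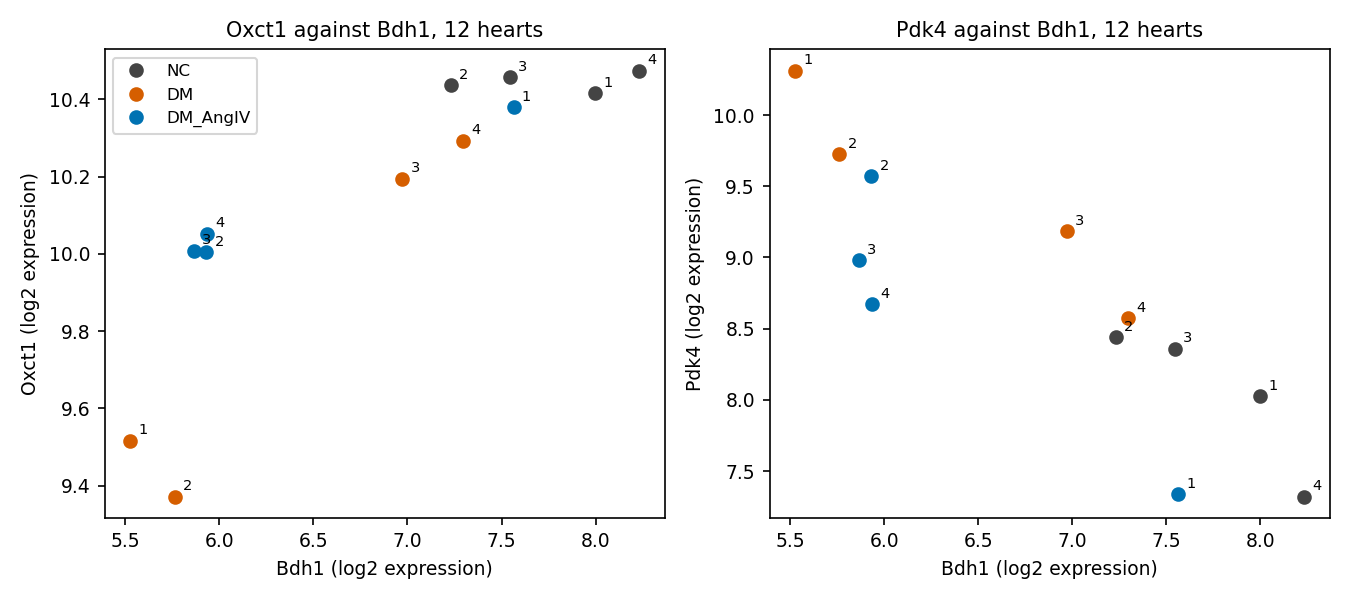
Oxct1 (left) and Pdk4 (right) plotted against Bdh1, all as log2 expression, in the 12 hearts, coloured by group and numbered by replicate. DM replicates 1 and 2 and DM_AngIV replicates 2, 3 and 4 form a low range of Bdh1, and DM_AngIV replicate 1 lies among or beside the NC hearts in both panels.

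The genes whose pattern over the 12 arrays was most like each member were taken from the 8372 genes with a mean above background, as a description with no test. Their correlations are shaped by the low and high ranges of hearts. For Bdh1 they were Parp3, an ADP-ribosyltransferase of DNA repair (r = 0.962), Ppa1, the cytosolic pyrophosphatase (0.948), and Higd1a, a hypoxia-induced mitochondrial protein (0.919). With each group's mean removed, r was 0.922, 0.932 and 0.895. For Oxct1 they were Gal3st2c, a sulfotransferase (0.938), Bckdhb, a subunit of the dehydrogenase that breaks down branched-chain keto acids (0.936), and Nsfl1c, a cofactor of the p97 ATPase (0.935). Bckdhb differed by −0.83 between DM and NC (limma adjusted p = 0.144), and Parp3 by −0.30 (0.478).

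The other members had other neighbours. For Acat1 they were the muscle protease gene Ky (r = 0.943), Tmem41b (0.891), a membrane protein of the endoplasmic reticulum, and Srp19 (0.889), a subunit of the signal recognition particle. Slc16a1 was most like Cdh5, the cadherin of endothelial junctions (0.886), Ormdl2, a regulator of sphingolipid synthesis (0.873), and the pseudokinase gene Trib2 (0.819). Slc16a7 was most like the fatty acid desaturase Fads2 (0.877), the histone methyltransferase Setdb1 (0.867) and Laptm4a (0.859). Bdh2, at background, was most like Pcid2 (0.865), Gm3238 (0.776) and Ascc2 (0.769).

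Of 38 measured genes on 4 lists of related processes, 0 were called in any of the 4 comparisons. Among 6 genes of ketone synthesis and cytosolic ketone use, 5 were below 0 in DM against NC, with a median of −0.07, but 5 of the 6 were not above background on any array. The exception was Hmgcs1, the cytosolic HMG-CoA synthase of sterol synthesis, with means of 6.55 ± 0.24 (SD, n = 4) for NC, 6.19 ± 0.16 for DM and 6.15 ± 0.10 for DM_AngIV, a difference of −0.38 ± 0.11 (SE) for both diabetic groups (limma adjusted p = 0.131). The succinyl-CoA transferase Oxct2b, a relative of Oxct1 known from testis, was not above background on any array.

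Among 9 other monocarboxylate transporters and their chaperones, 8 were not above background on any array, with Slc16a6 and Slc5a8 among them. Only Bsg, basigin, which carries MCT1 to the membrane, was above it, with means of 10.94 ± 0.17 (SD, n = 4) for NC, 10.92 ± 0.13 for DM and 11.06 ± 0.06 for DM_AngIV, and it differed by 0.05 ± 0.09 (SE) for both diabetic groups (limma adjusted p = 0.886). The median of the 9 was −0.10 in DM against NC.

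The 16 measured genes of the tricarboxylic acid cycle, which takes up the acetyl-CoA from ketones, were all above background, and 11 were below 0 in DM against NC, with a median of −0.03 beside −0.00 over all genes. Idh3g, a subunit of isocitrate dehydrogenase, differed by −0.25 ± 0.10 (SE) between DM_AngIV and NC, and Suclg1, a subunit of the ligase that also uses succinyl-CoA, by 0.26 ± 0.11 (limma adjusted p = 0.258 and 0.278). Among 7 genes of ketone sensing and transcriptional control, 4 were above 0 in DM against NC. Ppargc1a, the coactivator PGC-1alpha of mitochondrial genes, had means of 8.96 ± 0.24 (SD, n = 4) for NC, 9.39 ± 0.16 for DM and 9.47 ± 0.19 for DM_AngIV, and differed by 0.46 ± 0.12 (SE) for both diabetic groups (limma adjusted p = 0.0928). Ppara, the fatty acid receptor, differed by −0.12 ± 0.11 (SE), and the ketone receptor Hcar2 was not above background on any array.

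**Figure D4:**
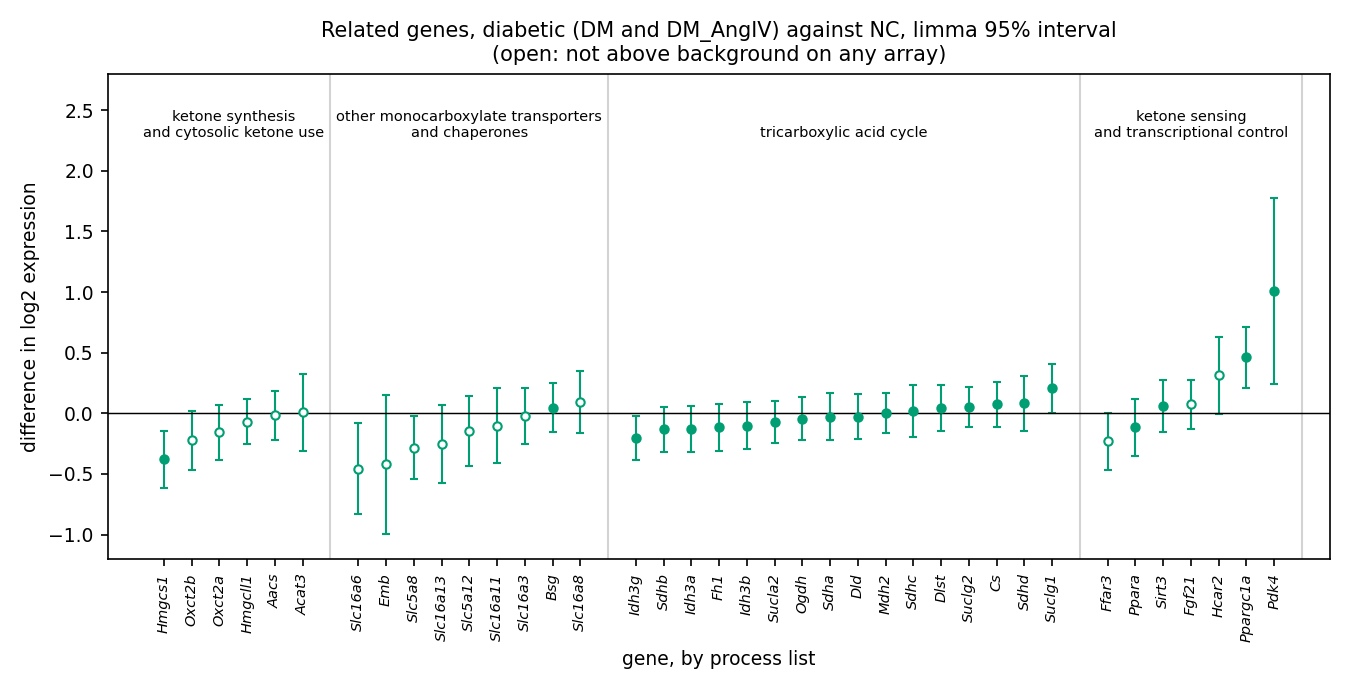
Differences in log2 expression for the 38 genes of the 4 related lists, both diabetic groups against NC, with limma 95% intervals. Open points were not above background on any array. Tricarboxylic acid cycle genes lie close to 0, and Pdk4 and Ppargc1a are the highest points above background.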

How the data were processed

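The authors deposited log2 expression values of all 12 arrays as 1 table, made by RMA (background correction, a common distribution and probe set summaries) per the submitters' processing notes, with no version, annotation or genome build named there. The labels give 6 µg as the input of total RNA. Of 29129 probe sets, 19572 had 1 gene symbol and 0 had several, all matched to RefSeq gene IDs, and the probe set of highest mean stood for each of 19505 genes. The 4 contrasts were taken from 1 limma 3.58.1 model (lmFit, eBayes; R 4.3.3) over all 12 arrays, two-sided, with Benjamini-Hochberg adjustment over all genes. The pairing, scaling, dim genes, array weights, atrial and hepatocyte markers and single arrays were varied. Correlations used permutation (100000 resamples, exact for up to 8 arrays). Precision is limited by the number of arrays. Code was tested on simulated data. The labels do not say how animals were housed or pooled, so p-values measure the spread between these samples.

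The members, lists and tests were chosen with earlier results of these data known. Named genes were the 6 members, per related list any called gene and the 2 with the smallest p, and the 3 genes most correlated with each member. Bsg, Ppara and Hcar2 were named besides, after their values were seen. The hepatocyte covariate, the Pdk4 correlations, and the correlations within diabetic hearts and within the upper Bdh1 range were added after seeing the data. Gene levels were not compared between probe sets. Python 3.11.15 with matplotlib 3.10.9 made the plots.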

Additional observations from a re-analysis of the deposited data

Results flagged for a closer look

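In 42 sets of 4 hearts (14 genes in 3 groups), 5 had a heart whose gap to the nearest of the others, divided by the group's range, was above Dixon's critical value for 4 samples, where chance gives about 1 in 20, or 2.1 sets. DM_AngIV replicate 1 gave 3 of them, being highest in its group. Bdh1 was 7.56 there against 5.86 to 5.93 in the other 3 hearts (ratio 0.959). Oxct1 was 10.38 against 10.01 to 10.05 (0.874), and Slc16a1 was 8.99 against 8.64 to 8.68 (0.868). Slc16a7 in NC replicate 3 was 5.65 against 4.98 to 5.05 (0.896). Ppargc1a in DM_AngIV replicate 4 was 9.75 against 9.34 to 9.40 (0.874).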

How the results depend on the processing

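Of 590 member values recomputed under the alternatives, 550 kept sign and side of the threshold, 30 turned sign and 10 came to pass. Of those 10, 5 passed by the exact permutation p, which is not adjusted over genes, 1 only at the adjusted threshold of 0.1 and 4 at 0.05. With all arrays 0 members were called, so a kept side meant still not called. Some values could not move. Each member had 1 probe set, so averaging probe sets changed no member's level, and the looser threshold reused the same fit. Leaving out an array of a group outside a comparison left its difference unchanged. The count of members called leaves out the exact permutation test. By limma it was 0 in DM against NC and in DM_AngIV against DM under all alternatives run. Over single arrays left out it was 0 to 1 in DM_AngIV against NC and 0 to 1 for both diabetic groups, where it was also 1 at an adjusted p below 0.1 and 1 without genes below the median of all genes (limma adjusted p = 0.0482). In each case the gene was Bdh1. The values that turned sign were as follows. In DM against NC, Acat1 was 0.0022 after quantile normalization, 0.0023 with the atrial covariate and 0.033 after the atrial arrays were left out, when Bdh2 was −0.27 and Slc16a7 0.15, and Bdh2 was −0.019 with the hepatocyte covariate. In DM_AngIV against DM, Oxct1 was −0.083, beside 0.27 with all arrays, without those arrays, where DM is replicate 3 alone. In DM_AngIV against NC, Slc16a1 was −0.0009 after quantile normalization, −0.033 with the atrial covariate and −0.023 without those arrays, and Bdh2 was −0.089 without them for both diabetic groups. The cause was not tested. Single arrays left out moved DM against NC to between −0.13 and 0.24 for Bdh2, −0.037 and 0.025 for Acat1 and −0.21 and 0.037 for Slc16a7. They moved DM_AngIV against DM to between −0.48 and 0.24 for Bdh1 and −0.15 and 0.28 for Bdh2, DM_AngIV against NC to between −0.055 and 0.062 for Slc16a1 and −0.10 and 0.30 for Bdh2, and both diabetic groups to between −0.032 and 0.20 for Bdh2. Of 15 member pairs, 1 (Bdh1 with Oxct1) passed over all 12 hearts after adjustment (permutation test), where the hearts fall into 2 ranges of Bdh1. The count was also 1 with group means removed and 1 without the 2 farthest hearts, by Pearson's r and by Spearman's rho. It was 0 without the atrial arrays by both, although r of Bdh1 with Oxct1 was 0.953 there. Those 7 hearts are fewer and span both ranges of Bdh1. The count was 0 in the upper range by both, and in the 8 diabetic hearts 0 by r and 1 by rho. Deviations of same-numbered arrays correlated at −0.12 to 0.27, and 3 of 12 such pairs were above 0.1. Those of differently numbered arrays correlated at −0.26 to 0.24, with 10 of 36 above 0.1. Replicate numbers were therefore not taken as pairs. With the replicate block 0 members passed in any comparison, and Bdh1 had an adjusted p of 0.356 in DM against NC. The fit on only the arrays compared was not run for both diabetic groups, which use all arrays. Centring and quantile normalization shifted the median of all genes by at most 0.0144.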

Other observations

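Liver transcripts, which the labelled tissue would not hold, were present at levels that differed between hearts. Alb, the serum albumin gene, was 11.02 in NC replicate 3, 9.65 in DM_AngIV replicate 4 and 9.23 in NC replicate 4, but 3.53 in NC replicate 2 and 5.43 in DM_AngIV replicate 2. The other 7 hearts lay between 7.34 and 8.41. With the hepatocyte marker mean as a covariate the difference of both diabetic groups from NC was −1.33 for Bdh1 and −0.45 for Oxct1, beside −1.40 and −0.47 without it.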
